A study of Arabidopsis thaliana with 4 samples.

Results

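Described here are 10 Arabidopsis genes of phenylpropanoid and early flavonoid synthesis, 7 for enzymes and 3 for their regulators, in seedlings of a tho2-8 line and its background line. They were chosen by locus identifier for their place in the pathway, and all 10 were found among the 37573 nuclear loci of the count tables. Plants draw lignin, sinapate esters, flavonols and anthocyanins from phenylalanine through a shared route. In the general phenylpropanoid pathway PAL1 removes ammonia from phenylalanine, C4H hydroxylates the resulting cinnamate and 4-coumarate:CoA ligases such as 4CL3 activate the product. Chalcone synthase (CHS) and chalcone isomerase (CHI) then build the flavonoid skeleton, flavanone 3-hydroxylase (F3H) makes dihydroflavonols, and flavonol synthase (FLS1) turns these into flavonols. In Arabidopsis MYB11, MYB12 and MYB111 are closely related R2R3-MYB activators of the flavonol genes, MYB12 being known mainly for the root and MYB111 for the cotyledons.

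The study sequenced polyadenylated RNA of Arabidopsis thaliana whole seedlings aged 14 days, grown on soil in a cycle of 16 hours of light and 8 hours of dark. Col-LUC, the background line, and tho2-8, a mutant line named for THO2 in that background, had 2 libraries each, and no treatment is given. THO2 is a subunit of the THO complex, which couples transcription to messenger RNA packaging and export. Which libraries are tho2-8 was read from their titles alone, since the genotype field names Col-LUC for all 4, and every comparison rests on this. The sources used here do not give what the tho2-8 allele changes or what LUC stands for in the shared background. Whether replicates were separate plants is not stated, so the tests weigh differences only against how far these libraries scatter, which can be technical scatter. Levels are given as CPM, counts per 1e6 counts of a library after TMM scaling, and as RPKM, which is CPM per kilobase of annotated exon, where genes are compared.

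Library totals lay between 17119534 and 17877941 counts. THO2 itself (AT1G24706) measured 82.1 and 84.6 CPM (Col-LUC) and 109 and 100.1 CPM (tho2-8), with an edgeR adjusted p of 0.340; since the allele is not described, this does not check the labels. The 6 green leaf markers, genes of photosynthesis, summed to between 14648 and 21495 CPM. Root markers, 9 tested of 10 and 0 of them at 0 counts, summed to 94.9 and 53.4 CPM (Col-LUC) and 52.3 and 32.4 CPM (tho2-8). Floral organ markers, 7 tested of 7, summed to 13.4 and 49.5 CPM for Col-LUC against 28.6 and 19.4 CPM for tho2-8. The root sums differed within each genotype and were separated between genotypes only by 53.4 against 52.3 CPM. For the floral markers both tho2-8 sums lay within the Col-LUC range. In RNA from whole seedlings, fewer cells of a type and less RNA per cell cannot be told apart.

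None of the 10 genes differed between genotypes past the threshold. Over the whole table edgeR's quasi-likelihood test called 2 of 20975 genes at a Benjamini-Hochberg adjusted p under 0.05, a background of 0.00954%, and 0 of the 9 members that could be tested. At an unadjusted p under 0.05 the test gave 0 of the 9, beside 15.6% of all tested genes. DESeq2 called 0 of the 9, beside 2.65% of all genes with an adjusted p, and limma-voom 0 of the 9, beside 0.00477%. The genotypes did not overlap for 3 of the 9, beside 48.5% of all tested genes: MYB11 was higher in tho2-8, beside 25.8% of all tested genes, and FLS1 and MYB12 were lower, beside 22.8%. The median log2 fold change was -0.17 over the 9 members and 0.01 over all tested genes. On the scale of log2(CPM + 0.5), the difference between the genotype means was for all 9 smaller than the larger of the 2 gaps between replicates, as it was for 64.3% of all tested genes.

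**Figure D1:**
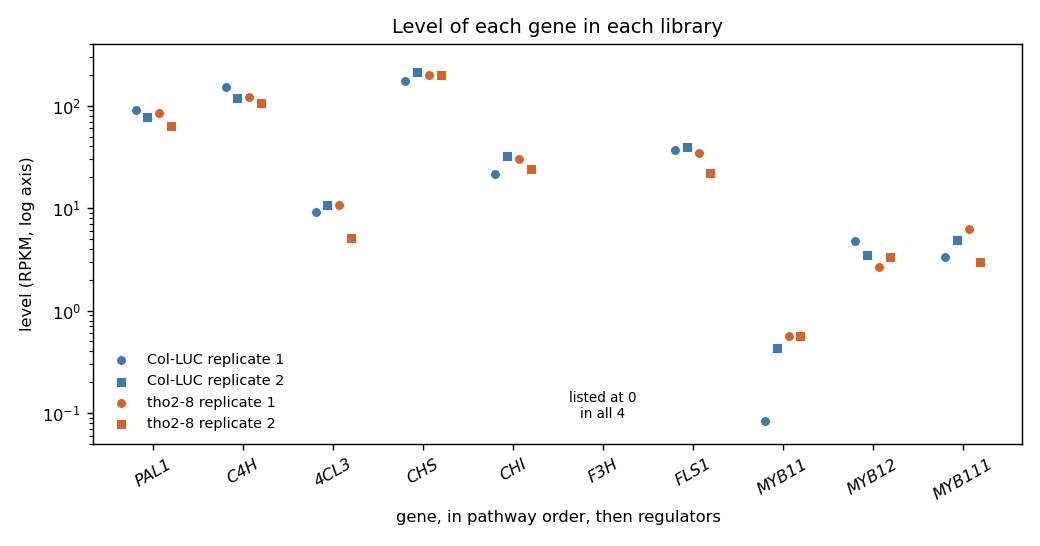
Level of each gene in each library in RPKM, on a log axis; blue points are Col-LUC, orange points tho2-8, circles replicate 1 and squares replicate 2. CHS is highest in all 4 libraries, F3H is listed at 0, and tho2-8 replicate 2 is the lowest point for PAL1, C4H, 4CL3, FLS1 and MYB111.

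Levels differed far more between the genes than between the genotypes. CHS stood highest, between 173 and 214 RPKM. C4H followed, with 107 to 153 RPKM, then PAL1 with 64.0 to 89.8 RPKM, and the ranges of these 3 genes did not overlap. FLS1 with 21.98 to 39.2 RPKM and CHI with 21.4 to 32.1 RPKM overlapped in range, although FLS1 was the higher of the pair in 3 of 4 libraries. 4CL3 stood at 5.11 to 10.8 RPKM and overlapped in range with MYB111. MYB111, at 2.998 to 6.24 RPKM, and MYB12, at 2.68 to 4.78 RPKM, could not be ordered, each being the higher in 2 of 4 libraries. MYB11 was lowest of the 9, with 0.0834 to 0.57 RPKM.

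The general phenylpropanoid genes came first in the pathway. PAL1 (AT2G37040, chromosome 2 from 15557367 to 15560755, minus strand, TAIR10.1) stood at 263 and 225 CPM (Col-LUC) and 247 and 188 CPM (tho2-8). The genotypes overlapped, and only tho2-8 replicate 2 lay below both Col-LUC libraries. The log2 fold change of PAL1 was -0.17 ± 0.20 (SE, n = 2 per genotype), with a 95% interval of -0.65 to 0.32 and an adjusted p of 0.736 by edgeR. C4H (AT2G30490, chromosome 2 from 12993625 to 12996012, minus strand), the cytochrome P450 of the second step, stood at 318 and 248 CPM for Col-LUC against 255 and 223 CPM for tho2-8. Its highest library was Col-LUC replicate 1, and its log2 fold change was -0.24 ± 0.20 (95% interval -0.72 to 0.23, edgeR adjusted p = 0.596). The ratio of C4H to PAL1 in RPKM stayed within a narrow range, at 1.70 and 1.55 (Col-LUC) and 1.46 and 1.67 (tho2-8).

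PAL1 shares its reaction with PAL2, PAL3 and PAL4. PAL1 made up 48.3% to 52.8% of the summed RPKM of the PAL genes across the 4 libraries, PAL2 39.2% to 43.5%, PAL4 4.32% to 6.17% and PAL3 2.60% to 3.88%. The sum itself was 170.2 and 159 RPKM for Col-LUC against 169.6 and 125 RPKM for tho2-8, so tho2-8 replicate 2 was lower while tho2-8 replicate 1 lay at the level of Col-LUC. Within the family the shares of the 2 genotypes overlapped for each of the 4 genes.

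4CL3 (AT1G65060, chromosome 1 from 24167202 to 24171635, minus strand) is the ligase isoform known in Arabidopsis for flavonoid synthesis, whereas 4CL1 and 4CL2 are known mainly for lignin. 4CL3 stood at 20.2 and 23.6 CPM (Col-LUC) and 23.9 and 11.3 CPM (tho2-8). Its highest and its lowest library were both tho2-8. For 4CL3 the log2 fold change was -0.32 ± 0.34 (95% interval -1.11 to 0.48, edgeR adjusted p = 0.691), while it was 0.13 without tho2-8 replicate 2 and -0.98 without tho2-8 replicate 1 (edgeR unadjusted p = 0.00382, adjusted p = 0.0810). 4CL1 stood at 216 and 187 CPM for Col-LUC against 141 and 121 CPM for tho2-8, with a log2 fold change of -0.62 ± 0.17 (edgeR unadjusted p = 0.00936, adjusted p = 0.198). 4CL2 stood at 91.2 and 62.6 CPM (Col-LUC) and 43.7 and 49.4 CPM (tho2-8), with a log2 fold change of -0.73 ± 0.21 (edgeR unadjusted p = 0.0100, adjusted p = 0.202). Both genes were lower in both tho2-8 libraries than in both Col-LUC libraries, as were 22.8% of all tested genes, and neither was called. 4CL3 supplied 5.91% and 8.46% of the summed RPKM of the 4CL genes for Col-LUC and 10.8% and 5.65% for tho2-8, and the sum was 155 and 126 RPKM for Col-LUC against 100.3 and 90.5 RPKM for tho2-8.

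**Figure D2:**
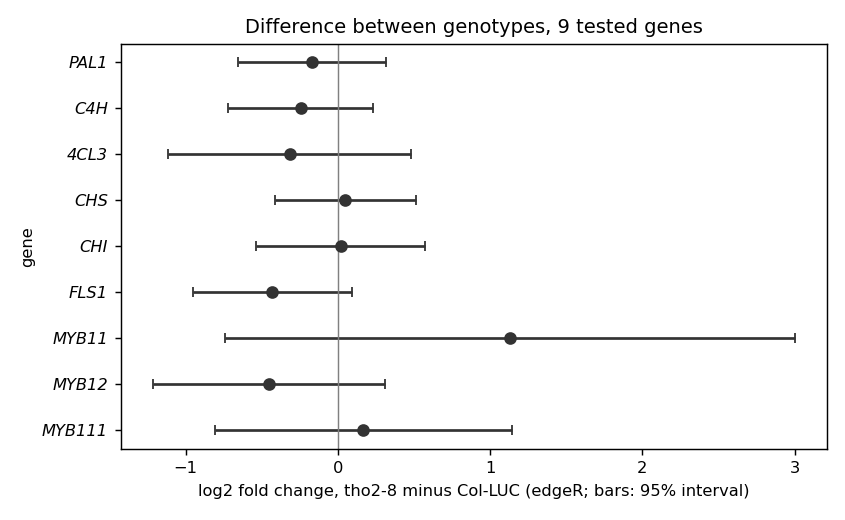
Log2 fold change of each of the 9 tested genes, tho2-8 minus Col-LUC, by edgeR, with bars for the 95% interval. All 9 intervals include 0; the interval of MYB11, from -0.74 to 3.004, is the widest of the 9 and that of CHS, from -0.41 to 0.51, the narrowest.

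For CHS and CHI both tho2-8 libraries lay within the Col-LUC range. CHS (AT5G13930, listed in the annotation as TT4, chromosome 5 from 4488476 to 4490264, plus strand), the entry enzyme of flavonoid synthesis, stood at 295 and 365 CPM (Col-LUC) and 340.2 and 343 CPM (tho2-8). For CHS the log2 fold change was 0.05 ± 0.19 (95% interval -0.41 to 0.51, edgeR adjusted p = 0.929), an interval that spans 0.751-fold to 1.42-fold. CHI (AT3G55120, listed as TT5, chromosome 3 from 20430059 to 20431597, minus strand) stood at 23.8 and 35.7 CPM for Col-LUC against 33.7 and 26.7 CPM for tho2-8. Its log2 fold change was 0.02 ± 0.23 (95% interval -0.54 to 0.57, edgeR adjusted p = 0.980). The ratio of CHI to CHS in RPKM was 0.124 and 0.150 (Col-LUC) and 0.152 and 0.119 (tho2-8). CHIL, a non-catalytic relative of CHI that aids CHS, had a log2 fold change of -0.20 ± 0.15 (edgeR adjusted p = 0.564).

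F3H (AT3G51240, chromosome 3 from 19025192 to 19026872, plus strand) was listed at 0 in all 4 libraries. Its neighbours in the pathway, CHI and FLS1, stood at 21.4 RPKM or more in each of them. In the TAIR10.1 annotation the antisense non-coding RNA gene AT3G51238 runs on the opposite strand from 19025110 to 19026779. Its single exon covers 1415 of the 1508 exon bases of F3H, or 93.8%, and leaves 93 bases at the 3′ end of F3H uncovered. AT3G51238 was itself listed at 0 in all 4 libraries. Over the whole table, 493 of 522 protein-coding loci with more than 90% of their exon bases under exons of the opposite strand were at 0 in every library, which is 94.4%. The share at 0 was 33.3% of 519 loci covered over 50% to 90%, 3.89% of 5627 loci covered up to 50% and 14.9% of 20764 loci with no such cover. No source used here gives the strand setting of the read counting, and its part in these values was not tested.

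**Figure D3:**
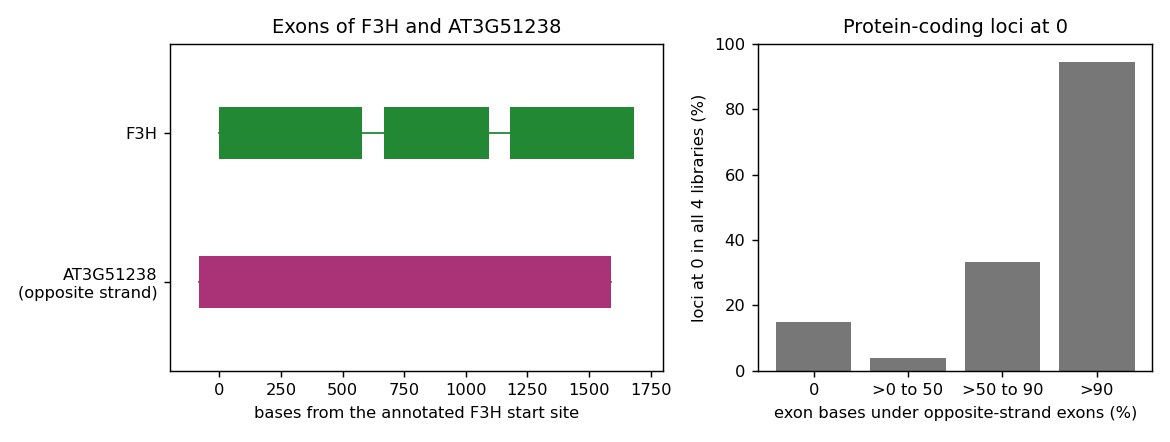
Left, exons of F3H (green) and of the opposite-strand gene AT3G51238 (purple) by distance in bases from the annotated F3H start site. Right, percent of protein-coding loci at 0 in all 4 libraries, by the percent of their exon bases lying under opposite-strand exons; the bar rises to 94.4% in the class of F3H, over 90%.

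A library with 3 counts would stand at 0.168 to 0.175 CPM, here without TMM scaling. This limits the reads assigned to F3H and not its messenger RNA, so no statement on F3H expression can be drawn from the tables. Other genes of the pathway lists had the same layout. UGT89C1, which adds rhamnose to flavonols, has 99.6% of its exon bases under opposite-strand exons and was at 0 in all 4 libraries. KFB39 and KFB50, F-box proteins that target PAL enzymes for degradation, have all of their exon bases covered and summed to 0 and 3 counts over the 4 libraries. CCR1 of lignin synthesis is covered over 77.2% of its exon bases, so its value is uncertain, although it summed to 2372 counts. Of the other members, MYB11 has 8.01% of its exon bases covered, CHS 0.117%, and the remaining 7 have 0%.

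FLS1 (AT5G08640, chromosome 5 from 2803833 to 2805606, plus strand) stood at 59.1 and 63.5 CPM for Col-LUC against 55.4 and 35.6 CPM for tho2-8. Both tho2-8 libraries lay below both Col-LUC libraries, replicate 1 by less than the gap between the Col-LUC replicates. The log2 fold change of FLS1 was -0.43 ± 0.22 (95% interval -0.95 to 0.09), with an unadjusted p of 0.0921 and an adjusted p of 0.397 by edgeR. Without tho2-8 replicate 1 it was -0.81 (edgeR unadjusted p = 0.00357, adjusted p = 0.0776), and without tho2-8 replicate 2 it was -0.14 (edgeR adjusted p = 0.923), so its size rested on tho2-8 replicate 2. Relative to CHS in the same library, FLS1 stood at 0.211 and 0.183 (Col-LUC) and 0.171 and 0.109 (tho2-8). In the log2 ratio the difference was -0.52, with a two-sided exact permutation p of 0.333, the smallest that 2 libraries against 2 allow.

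Among the regulators MYB12 (AT2G47460, chromosome 2 from 19476326 to 19479597, plus strand) stood at 7.57 and 5.55 CPM for Col-LUC against 4.25 and 5.33 CPM for tho2-8. The groups were separated, by less than the gap within either genotype. For MYB12 the log2 fold change was -0.45 ± 0.32 (95% interval -1.22 to 0.31, edgeR adjusted p = 0.536). MYB111 (AT5G49330, chromosome 5 from 19998823 to 20001572, minus strand) stood at 5.39 and 8.03 CPM (Col-LUC) and 10.2 and 4.89 CPM (tho2-8). Its highest and its lowest library were both tho2-8, as for 4CL3. The log2 fold change of MYB111 was 0.17 ± 0.41 (95% interval -0.81 to 1.14, edgeR adjusted p = 0.882), and it turned to -0.48 without tho2-8 replicate 1 and to -0.09 without Col-LUC replicate 1. MYB11 (AT3G62610, chromosome 3 from 23154630 to 23156585, plus strand) had 2 and 10 counts in the Col-LUC libraries and 14 in each tho2-8 library. These are 0.115, 0.590, 0.783 and 0.770 CPM, with exact Poisson 95% intervals of 0.0139 to 0.414, 0.283 to 1.09, 0.428 to 1.31 and 0.421 to 1.29 CPM that cover counting error only. The interval of Col-LUC replicate 2 overlapped those of both tho2-8 libraries, and that of Col-LUC replicate 1 lay below both. For MYB11 the log2 fold change was 1.13 ± 0.79 (95% interval -0.74 to 3.004, edgeR adjusted p = 0.528), and it was 0.39 without Col-LUC replicate 1 and 2.69 without Col-LUC replicate 2.

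Promoters of these genes are known for ACGT-containing elements, among them the G-box, to which the light regulator HY5 binds, and for AC-rich elements recognised by R2R3-MYB factors. In the 250 bases before each annotated start site, both strands were searched for the G-box CACGTG, for any ACGT, which every G-box contains, and for the AC elements AC-I (ACCTACC), AC-II (ACCAACC) and AC-III (ACCTAAC). A G-box was found in 3 of the 10 windows (CHS, F3H and MYB12), beside 6.49% of 27431 protein-coding loci, and any ACGT in 6 of 10 beside 44.1%. Of the 10 windows, that of 4CL3 alone held an AC element, AC-I at 2 places, beside 6.11% of loci with any of the 3 elements and 1.16% with AC-I. The windows of C4H, CHI and FLS1 held none of these letters. The 4 windows with a G-box or an AC element are shown because they are the members with a motif beyond a bare ACGT. They are given 5′ to 3′ on the strand of the gene from the RefSeq TAIR10.1 genome, with the motifs in capitals. In CHS the last base of the G-box lies 228 bases before the start site and in MYB12 113 bases before it, while the nearer AC-I element of 4CL3 ends 62 bases before its start. The last 82 bases of the F3H window lie in the exon of AT3G51238.
4CL3, chr1:24171636-24171885, minus strand: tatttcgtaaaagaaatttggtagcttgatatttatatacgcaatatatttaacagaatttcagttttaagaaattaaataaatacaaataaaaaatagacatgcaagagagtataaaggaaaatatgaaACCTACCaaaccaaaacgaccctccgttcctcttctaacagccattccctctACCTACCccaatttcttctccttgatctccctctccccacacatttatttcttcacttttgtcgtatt
CHS, chr5:4488226-4488475, plus strand: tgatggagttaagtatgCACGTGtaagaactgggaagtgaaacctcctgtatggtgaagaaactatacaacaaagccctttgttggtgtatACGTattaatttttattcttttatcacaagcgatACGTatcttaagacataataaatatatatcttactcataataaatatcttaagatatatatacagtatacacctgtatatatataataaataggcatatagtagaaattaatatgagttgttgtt
F3H, chr3:19024942-19025191, plus strand: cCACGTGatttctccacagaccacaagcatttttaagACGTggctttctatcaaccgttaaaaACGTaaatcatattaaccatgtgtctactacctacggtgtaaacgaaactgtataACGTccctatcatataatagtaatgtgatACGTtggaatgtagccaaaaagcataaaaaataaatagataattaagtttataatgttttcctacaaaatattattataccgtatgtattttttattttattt
MYB12, chr2:19476076-19476325, plus strand: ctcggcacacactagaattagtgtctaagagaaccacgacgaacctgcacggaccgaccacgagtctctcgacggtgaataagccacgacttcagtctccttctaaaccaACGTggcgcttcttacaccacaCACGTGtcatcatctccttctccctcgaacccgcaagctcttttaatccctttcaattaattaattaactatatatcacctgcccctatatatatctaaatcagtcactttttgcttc
A match in these windows is a description of the sequence and not of binding. CHS and MYB12, both with a G-box, stood at log2 fold changes of 0.05 and -0.45, and 4CL3, with AC-I, at -0.32, none of them called.

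The other genes around these steps were grouped in lists. Among 6 further entry isoforms, 0 passed over all genes and 2 were lower at an unadjusted p under 0.05, beside 7.18% of all tested genes lower and 8.40% higher at that level. These were 4CL1 and 4CL2, described above. In the branch to monolignols and sinapate esters 0 of 12 passed edgeR over all genes and DESeq2 called 1 lower, OMT1, beside 1.37% of all genes called lower. At an unadjusted p under 0.05, 3 of 12 were lower and 0 higher, and the median log2 fold change was -0.32. OMT1, which methylates lignin precursors, stood at 209.9 and 179 CPM for Col-LUC against 128 and 119 CPM for tho2-8 (log2 fold change -0.65 ± 0.17, edgeR adjusted p = 0.180, DESeq2 adjusted p = 0.0432). CAD5, an alcohol dehydrogenase of the last step to lignin monomers, stood at 87.0 and 77.7 CPM (Col-LUC) and 52.1 and 57.5 CPM (tho2-8). CSE, an esterase of caffeoyl shikimate, stood at 127 and 101 CPM for Col-LUC against 84.4 and 83.4 CPM for tho2-8. For 8 of the 12 both tho2-8 libraries lay below both Col-LUC libraries, beside 22.8% of all tested genes. Root markers lay on the same side, with 3 of 9 tested lower at an unadjusted p under 0.05, beside 7.18% of all tested genes. Their median log2 fold change was -0.78, with the sums of 94.9, 53.4, 52.3 and 32.4 CPM given above. Floral organ markers had a median of -0.79, with 6 of 7 below 0 and 1 lower at an unadjusted p under 0.05. The floral median was -1.59 without Col-LUC replicate 1 and 0.84 without Col-LUC replicate 2. Green leaf markers had a median of 0.01. The part of these marker lists in the monolignol and sinapate values was not tested. DESeq2 called 1 root marker lower, CASP1 (DESeq2 adjusted p = 0.0411), beside 1.37% of all genes. The root marker median was -0.11 without Col-LUC replicate 1 and -1.12 without Col-LUC replicate 2. It was -1.42 without tho2-8 replicate 1 and -0.38 without tho2-8 replicate 2. With these same libraries left out in that order, the median of the 12 monolignol and sinapate genes was -0.31, -0.40, -0.51 and -0.17.

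**Figure D4:**
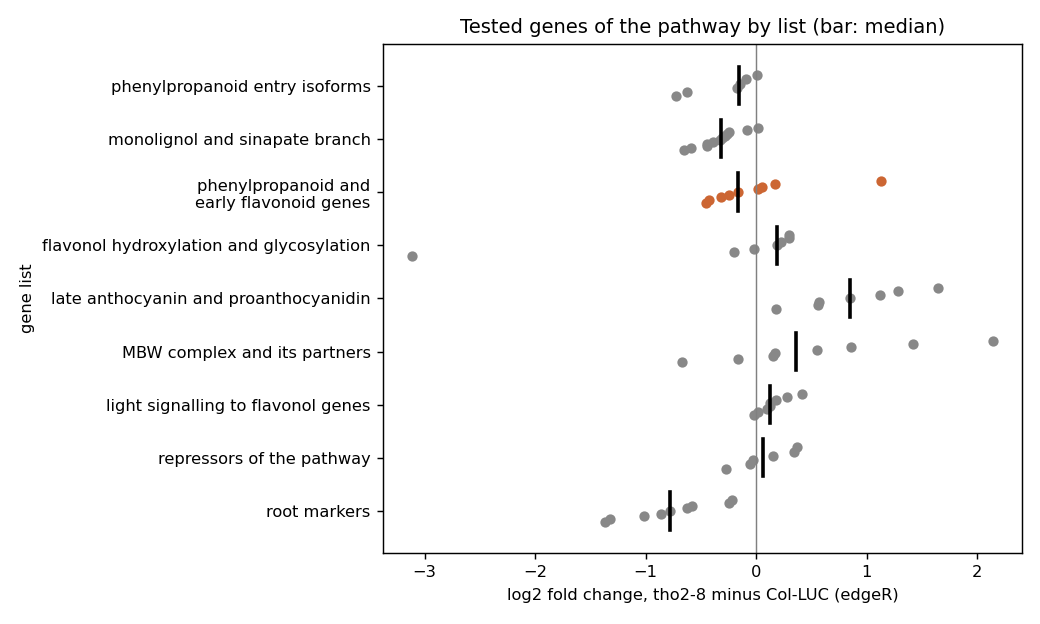
Log2 fold change by edgeR, tho2-8 minus Col-LUC, of every tested gene of each list shown. Floral organ and green leaf markers are not shown. Each point is 1 gene, and the black bar is the median of the list. The 9 tested phenylpropanoid and early flavonoid genes (orange) have a median of -0.17, the late anthocyanin and proanthocyanidin genes one of 0.84 and the monolignol and sinapate genes one of -0.32.

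Of 8 genes of flavonol hydroxylation and glycosylation 7 were tested, 0 passed, and the median log2 fold change was 0.19. This median rested on single libraries, since it was 0.0012 without Col-LUC replicate 1, -0.04 without Col-LUC replicate 2, where an unadjusted p under 0.05 was reached by 2 genes, both higher, and 0.06 without tho2-8 replicate 1. TT7, which hydroxylates the B ring, stood at 31.8 and 33.6 CPM (Col-LUC) and 39.9 and 40.6 CPM (tho2-8), and UGT78D2, a flavonoid glucosyltransferase, at 54.4 and 65.5 CPM against 75.3 and 71.7 CPM. UGT78D3, an arabinosyltransferase of flavonols, was the 1 gene lower at an unadjusted p under 0.05, beside 7.18% of all tested genes. It had few counts, 15 and 36 (Col-LUC) and 4 and 2 (tho2-8). These are 0.860 and 2.13 CPM for Col-LUC against 0.224 and 0.110 CPM for tho2-8 (edgeR adjusted p = 0.173). In the late anthocyanin and proanthocyanidin list 7 of 10 were tested, and 0 passed edgeR over all genes. BAN, TT12 and LAC15 had too few counts to be tested. LAC15 lay the other way, with 16 and 8 counts (Col-LUC) and 3 and 2 counts (tho2-8), while BAN and TT12 had at most 2 counts in any library. At an unadjusted p under 0.05, 6 of the 7 tested were higher, beside 8.40% of all tested genes. DESeq2 called 3 higher, AHA10, LDOX and 5MAT, beside 1.28% of all genes. AHA10, a proton pump of the vacuolar pathway, stood at 5.39 and 4.96 CPM (Col-LUC) and 15.4 and 16.99 CPM (tho2-8). LDOX, which forms anthocyanidins, stood at 25.9 and 40.0 CPM for Col-LUC against 68.6 and 92.0 CPM for tho2-8, and 5MAT, which adds malonyl groups to anthocyanins, at 9.40 and 13.0 CPM against 18.3 and 30.3 CPM. The median log2 fold change over the 7 tested genes of the late list was 0.84, and it was 0.74 without Col-LUC replicate 1. Over 8 tested genes it was 0.81 without Col-LUC replicate 2, 0.95 without tho2-8 replicate 1 and 0.41 without tho2-8 replicate 2. With no filter on low counts edgeR called 1 of the 10 late list genes higher after adjustment over all genes. In that setting edgeR called 57 of 26203 genes in either direction. In a list of regulators of the late genes, which holds TT8, TTG1 and MYBL2 themselves, 8 of 10 were tested and 0 passed. At an unadjusted p under 0.05, 2 were higher, MYB75 and MYB114, beside 8.40% of all tested genes. Of the 8 tested, 2 had a log2 fold change below 0, GL3 at -0.67 and TTG1 at -0.16. TT2 and MYB113 had too few counts to be tested. TT2 had 9 and 3 counts (Col-LUC) and 2 and 2 counts (tho2-8), and MYB113 had 8 and 6 against 6 and 10. MYB75 stood at 2.18 and 3.42 CPM (Col-LUC) and 6.09 and 8.91 CPM (tho2-8), with an edgeR adjusted p of 0.185. Its difference from the flavonol regulators MYB12 and MYB111 was not tested.

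FLS1 and dihydroflavonol reductase (DFR) use the same dihydroflavonol substrates, for flavonols and for anthocyanins. DFR stood at 49.4 and 56.9 CPM for Col-LUC against 70.3 and 120.4 CPM for tho2-8 (log2 fold change 0.84 ± 0.26, edgeR adjusted p = 0.219). The ratio of DFR to FLS1 in RPKM was 0.889 and 0.954 (Col-LUC) and 1.35 and 3.60 (tho2-8). The ratio of LDOX to FLS1 was 0.506 and 0.728 for Col-LUC against 1.43 and 2.99 for tho2-8. Both ratios were higher in both tho2-8 libraries, and most so in tho2-8 replicate 2, where FLS1 was lowest and DFR and LDOX were highest. DFR and LDOX each lay higher and FLS1 lower in both tho2-8 libraries. The separation of the ratios and its permutation p were therefore fixed by the single genes and add no further result. The log2 ratios differed by 1.26 and 1.77, each with a two-sided exact permutation p of 0.333, the smallest possible with 2 libraries against 2. These are among 10 ratios compared, and the p adjusted over the 10 was 0.667 for both.

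**Figure D5:**
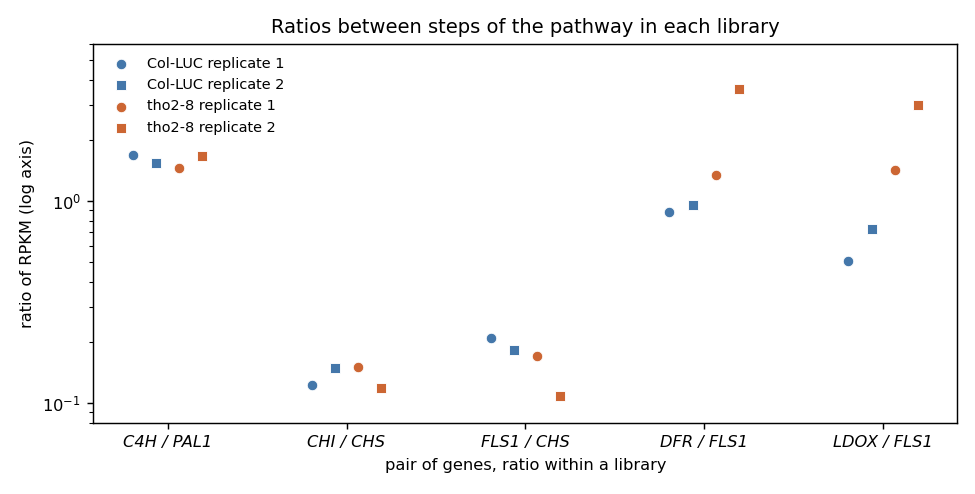
Ratio of the RPKM of 2 genes within each library, on a log axis; blue points are Col-LUC, orange points tho2-8, circles replicate 1 and squares replicate 2. C4H to PAL1 and CHI to CHS overlap between genotypes, while DFR to FLS1 and LDOX to FLS1 lie higher in both tho2-8 libraries, at up to 3.60 and 2.99.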

How the data were processed

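Each library's table, as the authors deposited it, holds estimated counts for the gene loci without normalization. The submitters' processing notes name Trimmomatic, featureCounts 1.6.3, HISAT2 2.1.0, DESeq2 1.24.0 and TAIR10, with no role; strand settings and the treatment of reads shared by loci were not given in the sources used here. Between 2.06% and 2.15% of loci held fractional counts, so values were rounded, where the design had assumed whole counts. The 296 organelle loci, all at 0, were left out. The TAIR10.1 annotation held all 37573 nuclear loci and gave exon lengths, overlaps and promoter sequences.

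Genes passing filterByExpr (20975) were scaled by TMM and tested with genotype as the only term in edgeR 4.0.16 (R 4.3.3; glmQLFit, glmQLFTest), with Benjamini-Hochberg adjustment over all of them. Standard errors and 95% intervals came from the F statistic. Groups were read from the library titles, since the genotype field names Col-LUC for all 4. DESeq2 1.42.0, limma-voom (limma 3.58.1), other scalings and filters, a replicate block and leaving out each library were alternatives, and edgeR was tested on simulated data. Within-library ratios were compared with an exact permutation test in scipy 1.17.1. The text names all 10 members and up to 3 genes per list by smallest p. DFR, CHIL, GL3, TTG1, TT2, MYB113, BAN, TT12, LAC15 and further light signalling genes were chosen after values were seen. So were genes named for their overlap with the opposite strand. Members, lists and tests were chosen with earlier results of these data known. Counting intervals and floors cover counting error only.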

Additional observations from a re-analysis of the deposited data

How the results depend on the processing

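The number of members called was 0 under edgeR, under each of the other tools, scalings, filters and the replicate block, and without each library. Over all genes edgeR called 2, DESeq2 560 and limma-voom 1, edgeR without a filter on low counts called 57, and with each library left out in turn the count ran from 0 without either Col-LUC library (2469 and 2815 at an unadjusted p under 0.05) to 115 without tho2-8 replicate 2 and 701 without tho2-8 replicate 1, the lone library being assumed to vary like the other group. Directions of small differences turned with single libraries: without tho2-8 replicate 2 the log2 fold change was 0.13 for 4CL3 and 0.024 for PAL1, without Col-LUC replicate 1 it was -0.25 for CHI, -0.10 for CHS and -0.09 for MYB111, and without tho2-8 replicate 1 it was -0.18 for CHI and -0.48 for MYB111; in each case the cause was not tested. Over the libraries left out in turn, 4CL3 ran from -0.98 to 0.13, CHI from -0.25 to 0.34, CHS from -0.10 to 0.21, MYB111 from -0.48 to 0.61 and PAL1 from -0.41 to 0.024. C4H, FLS1, MYB11 and MYB12 kept their direction in each alternative that tested them, at -0.41 to -0.05, -0.81 to -0.14, 0.39 to 2.69 and -0.66 to -0.21. MYB11 did not pass the filter of 1 CPM in 2 libraries. With the replicate number as a block edgeR called 2 genes and 0 members; libraries with the same number did not deviate together (correlation -0.14 across genes), so the numbers were not used as pairs. The medians of list genes with libraries left out, and the late list's call with no filter on low counts, were chosen after seeing the data. With 2 libraries a genotype, the interval of FLS1 includes both no change and a fall by 0.95 on the log2 scale.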

Other observations

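Of 8 light signalling genes that act upstream of the flavonol genes, 0 passed edgeR over all genes and 1 was higher at an unadjusted p under 0.05, beside 8.40% of all tested genes. This was HY5, a bZIP factor of light responses, at 33.7 and 27.3 CPM (Col-LUC) and 41.0 and 40.5 CPM (tho2-8), with a log2 fold change of 0.42 ± 0.16 and an edgeR adjusted p of 0.296. BBX22, a B-box partner of HY5, had a log2 fold change of 0.28 ± 0.20. Of the 8, 2 were higher in both tho2-8 libraries than in both Col-LUC libraries, HY5 and BBX22, beside 25.8% of all tested genes. The remaining log2 fold changes were 0.18 ± 0.22 for the B-box gene BBX21, 0.13 ± 0.28 for RUP1 and 0.12 ± 0.24 for RUP2, both repressors of UV-B signalling, 0.10 ± 0.15 for COP1, which marks HY5 for degradation, 0.02 ± 0.17 for the UV-B receptor gene UVR8, and -0.02 ± 0.16 for HYH, the close relative of HY5. The median over the 8 was 0.13, and it lay between -0.01, without tho2-8 replicate 1, and 0.21, without Col-LUC replicate 2.

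Of 8 repressors of the pathway 6 were tested, and 0 passed edgeR over all genes. At an unadjusted p under 0.05 edgeR gave 0 of the 6, beside 15.6% of all tested genes. The median log2 fold change was 0.06, and with each library left out in turn it lay between 0.07 and 0.22. MYB4, a repressor of C4H, stood at 55.8 and 41.7 CPM for Col-LUC against 53.4 and 70.0 CPM for tho2-8. KFB-CHS, an F-box protein that targets CHS for degradation, stood at 64.5 and 84.1 CPM (Col-LUC) and 66.3 and 56.6 CPM (tho2-8), so the genotypes overlapped for both genes.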
